A study of Mus musculus with 48 samples.

Results

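The lungs of 8 diet-induced obese mice that breathed mainstream cigarette smoke (DIO-MS) were compared with the lungs of 8 diet-induced obese mice that breathed sidestream smoke (DIO-SS). These 16 animals, of 48 in the series, were taken by their titles, with 1 array of lung RNA per animal and 12393 genes measured. All animals were male C57BL/6 mice bought at 13 weeks of age, and they were 15 weeks old when exposure began. The obese animals had eaten a diet with 60 kcal% fat since they were 6 weeks old, for 9 weeks before exposure and then throughout. They were exposed through the nose for 5 hours at a time, 8 times within 2 weeks, and lungs were taken a day after the last exposure. Beside them stood 8 regular weight mice in mainstream smoke (RW-MS) and 8 in sidestream smoke (RW-SS), which ate a diet with about 5 kcal% fat, and 8 obese sham controls that breathed filtered air through the same nose-only route (DIO-SC). The labels' text on the animals also mentions a study with LPS, and whether any of these animals took part in it is not stated. They give no smoke concentrations, so the kind of smoke and the dose that reached the lung cannot be told apart.

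Mainstream smoke is drawn through the cigarette to the mouth end, whereas sidestream smoke is given off by the smouldering tip between puffs. Both carry polycyclic aromatic hydrocarbons, which bind the aryl hydrocarbon receptor and induce enzymes such as Cyp1a1, and both carry oxidants and irritants that can call in leukocytes. In the lung, irritated epithelium and macrophages release chemokines, small secreted proteins that draw neutrophils, monocytes and lymphocytes, while acute phase proteins such as serum amyloid A are made locally as well as in the liver. Interferons, which cells release on sensing viruses, bacterial products or other danger signals, induce a separate set of genes that includes Mx1 and the Ifit family.

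Values are log2 signals, so that a difference of 1 is a doubling, and the median level over genes was 8.27. Lung markers were near the highest value on any array, 15.268, in both groups, so small differences in them cannot be seen: surfactant protein C (Sftpc) averaged 15.07 in DIO-MS and 15.07 in DIO-SS, and the club cell protein Scgb1a1 averaged 15.16 in DIO-MS and 15.16 in DIO-SS. Of the 48 arrays, 5 correlated less well with the rest, at a mean of 0.963 to 0.982 against at least 0.987 for the other 43. These were DIO-MS-1 and DIO-MS-6, called the pair from here on, and DIO-SC-3, DIO-SC-7 and RW-SS-6. The pair belongs to the mainstream group, so the main results below are given with and without it. Among markers of tissue that can be taken along with lung, those of squamous epithelium lay at -0.31 to -0.02 in DIO-MS and -0.10 to 0.03 in DIO-SS (mean of 12 genes, each relative to its mean over 48 arrays), against up to 5.00 in DIO-SC. Cardiac muscle markers were lowest in DIO-MS-1, at -1.97, against -0.67 to 0.69 in the other 6 DIO-MS arrays and -0.87 to 0.996 in DIO-SS.

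Mainstream and sidestream smoke left the obese lung in clearly different states. Serum amyloid A3, neutrophil-attracting chemokines, monocyte chemokines and macrophage genes such as Mmp12 were far higher after mainstream smoke, and the fatty acid handling genes Acaa1b and Fabp1 far lower. Of the 12393 genes, 2086 (16.8%) passed an adjusted p of 0.05 in limma's test, 1094 higher (8.83%) and 992 lower (8%) in DIO-MS. A change of at least 1.5-fold was present in 424 of these (3.42%). In 473 genes (3.82%) all 8 DIO-MS arrays lay above all 8 DIO-SS arrays, and in 245 (1.98%) all lay below. The median difference over all genes was -0.04. In bulk lung, a change in the number of cells of a type and a change in RNA per cell cannot be told apart.

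Without the pair, 857 genes (6.92%) were called, 590 higher (4.76%) and 267 lower (2.15%), and 230 (1.86%) by at least 1.5-fold. Of these, 835 had also been called with all arrays, which is 97.4% of the smaller list and 40% of the larger, with 575 higher (4.64% of all genes) and 260 lower (2.1%). The other 1251 were called only with the pair in the fit that holds all groups, 519 of them higher and 732 lower, but 658 of them were called without the pair in the fit on the 16 arrays compared. Where no fit is named below, a value without the pair comes from the fit that holds all groups. Their median absolute difference was 0.26 with the pair and 0.18 without it, and every one of the 1251 kept its direction. In 69.5% of them the pair held the most extreme DIO-MS values, against 61.2% of the calls made both ways and 30.1% of all genes. Only 22 genes were called without the pair and not with it.

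How much the count moved with the pair also depended on which arrays gave the estimate of spread. With the 16 DIO-MS and DIO-SS arrays alone, 2338 genes were called with the pair and 1878 without it. Without the pair this fit, still named the fit on the 16 arrays below, holds 14 arrays. List counts from it are to be read against 1878 of all 12393 genes. Those without the pair in the fit that holds all groups are to be read against 857. A larger count for a list in the fit on the 16 arrays is thus not particular to that list. With DIO-SC-3, DIO-SC-7 and RW-SS-6 left out of the fit, 2846 were called with the pair and 1482 without it. Leaving out DIO-MS-1 alone gave 1388 calls and DIO-MS-6 alone 1424, while leaving out any other single DIO-MS or DIO-SS array gave 1776 to 2259. The 12 strongest rises and the 12 strongest falls among the 835 genes were called under each of these choices of arrays.

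**Figure D1:**
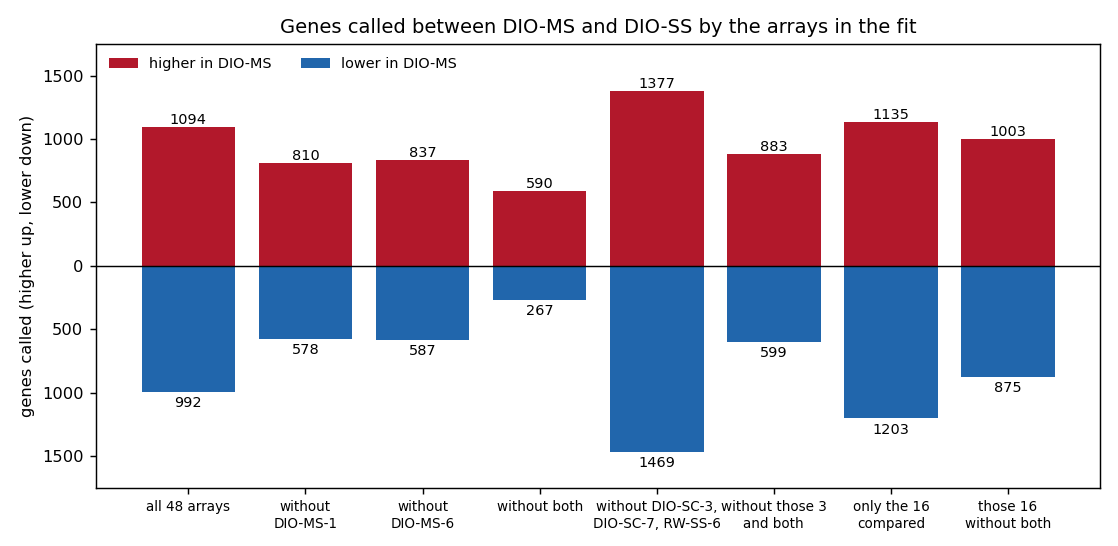
Number of genes called between DIO-MS and DIO-SS (y axis, genes higher in DIO-MS drawn upwards and lower ones downwards) for 8 choices of arrays in the fit (x axis). The bars are shortest without both DIO-MS-1 and DIO-MS-6, with 590 higher and 267 lower genes, and longest without DIO-SC-3, DIO-SC-7 and RW-SS-6, with 1377 higher and 1469 lower.

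**Figure D2:**
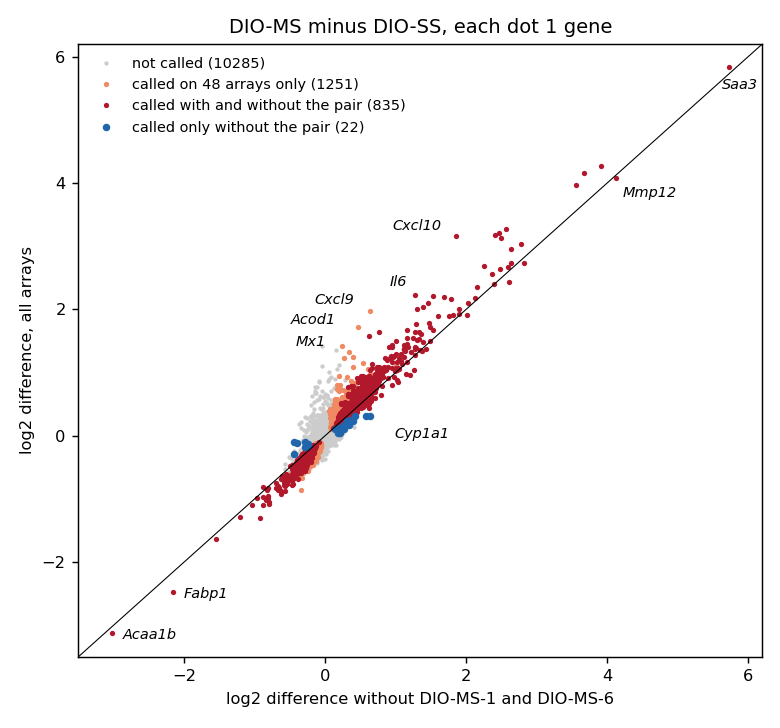
Each dot is 1 gene, with its log2 difference DIO-MS minus DIO-SS without the pair on the x axis and with all arrays on the y axis; the line marks equal values. Saa3, Mmp12, Acaa1b and Fabp1 lie near the line, whereas Cxcl9, Acod1 and Mx1 lie well above it.

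The acute phase genes gave the largest single difference. Saa3, a serum amyloid A gene expressed by macrophages and epithelium, lay between 14.18 and 14.71 in DIO-MS with a median of 14.31, between 7.72 and 10.24 in DIO-SS with a median of 8.42, and between 7.16 and 8.18 in DIO-SC. The 2 smoke groups did not overlap, and the sidestream group's one high animal, DIO-SS-7 at 10.24, was still far under the lowest mainstream animal. The difference was 5.83 ± 0.25 (log2, ± SE, n = 8 each), or 57.0-fold, with an adjusted p of 3.24e-23, and it was 5.73 without the pair. Lcn2, which binds bacterial iron carriers, was higher by 2.67 and lay at 13.49 to 14.15 in DIO-MS against 10.97 to 11.24 in DIO-SS. Timp1, an inhibitor of matrix metalloproteinases, was higher by 2.69 (2.25 without the pair), and Orm1, which encodes the plasma protein orosomucoid, by 3.20 (2.47 without it). Of 18 acute phase genes 14 rose and 0 fell, with a median of 0.98. Without the pair 11 rose, with a median of 0.74, or 13 in the fit on the 16 arrays.

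Several neutrophil-attracting chemokines were also much higher. Cxcl1 lay between 9.14 and 11.38 in DIO-MS with a median of 9.67, against 5.21 to 5.99 with a median of 5.58 in DIO-SS and 4.87 to 5.74 in DIO-SC. No mainstream animal came near the sidestream range, and the highest were the pair, at 10.50 and 11.38. The difference was 4.27 ± 0.24 (adjusted p = 2.27e-19) and 3.91 without the pair. Cxcl5, a chemokine of lung epithelium, was higher by 4.15 (3.67 without the pair) and Cxcl2 by 3.17 (2.41 without it). Il6, the cytokine that drives the acute phase response, was higher by 2.23, with values of 8.62 and 9.38 in the pair and 4.49 to 5.81 in the other 6 DIO-MS animals, against 3.61 to 4.11 in DIO-SS. The groups did not overlap, but the difference was 1.27 without the pair. DIO-SS levels of Cxcl2 (median 3.92) and Il6 (median 3.94) lay below the fifth percentile of all genes, 4.09. Of the 10 genes in this list 5 rose and 1, the platelet chemokine Ppbp, fell by 0.62. Without the pair 4 rose and 0 fell, or 5 and 1 in the fit on the 16 arrays. The median over the list was 0.56 with the pair and 0.18 without it.

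Cxcl1 and Cxcl2 are neighbours on chromosome 5, and their promoters are shown because both genes moved together and hold the same run of letters. Each sequence gives the 250 bases before the RefSeq start (GRCm38.p6, plus strand, chr5:90890995-90891244 for Cxcl1 and chr5:90903649-90903898 for Cxcl2), with capitals for matches to the NF-kappaB consensus, which names a factor family that acts in inflammation.

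Cxcl1: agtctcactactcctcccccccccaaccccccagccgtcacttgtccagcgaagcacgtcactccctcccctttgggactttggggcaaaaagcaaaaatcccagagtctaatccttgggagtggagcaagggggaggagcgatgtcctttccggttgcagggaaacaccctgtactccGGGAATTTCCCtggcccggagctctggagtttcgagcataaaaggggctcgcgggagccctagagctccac
Cxcl2: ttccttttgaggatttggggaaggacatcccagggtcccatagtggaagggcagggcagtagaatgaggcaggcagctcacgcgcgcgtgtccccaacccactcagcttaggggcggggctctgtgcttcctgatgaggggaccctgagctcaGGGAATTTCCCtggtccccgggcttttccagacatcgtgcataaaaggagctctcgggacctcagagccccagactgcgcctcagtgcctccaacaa

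Both promoters hold the same 11 letters, 71 bases before the start in Cxcl1 and 97 bases before it in Cxcl2, where 2 overlapping matches lie on both strands. A match to this consensus is present in 7.25% of 32851 mouse promoters of this length, and the presence of the letters says nothing of whether the factor was bound here.

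The chemokines of monocytes and lymphocytes rose in 11 of 16 genes, and none fell, with a median of 1.30 against -0.04 over all genes. Ccl3 was higher by 3.27 (2.56 without the pair), Ccl2, the main attractant of blood monocytes, by 3.13, Ccl9 by 2.64 and Ccl17, which draws T cells that carry the receptor Ccr4, by 2.43. Ccl2 lay at 7.80 to 10.75 in DIO-MS (median 8.30) and at 5.34 to 5.89 in DIO-SS (median 5.72). Ccl17 lay at 9.53 to 10.89 in DIO-MS (median 10.53) and at 7.82 to 8.26 in DIO-SS (median 7.95). Neither gene overlapped between the groups, yet the pair moved opposite ways in them: it held the highest Ccl2 values and the lowest Ccl17 values among the mainstream animals. Without it the difference was 2.49 in Ccl2 and 2.61 in Ccl17. Of the 16 genes 9 were called without the pair, or 11 in the fit on the 16 arrays. Ccl4, another chemokine of the list, was called only with the pair, which lay at 10.50 and 10.51 against 6.48 to 6.94 in the other 6 and 5.99 to 6.80 in DIO-SS.

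**Figure D3:**
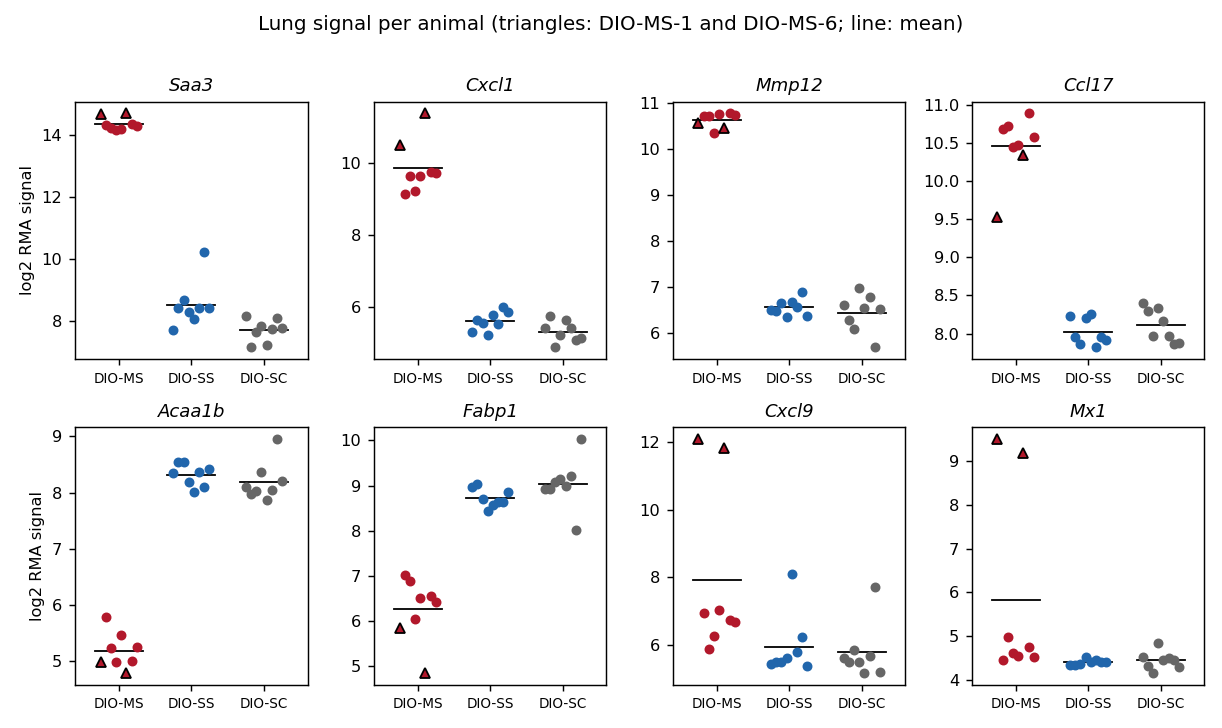
Log2 signal (y axis) of 8 genes in each animal of DIO-MS, DIO-SS and DIO-SC (x axis), with a line at each group's mean and triangles for DIO-MS-1 and DIO-MS-6. Saa3, Cxcl1, Mmp12 and Ccl17 separate all mainstream animals upwards from the sidestream animals and Acaa1b and Fabp1 downwards, whereas Cxcl9 and Mx1 are high in the 2 triangles, at 12.08 and 11.82 for Cxcl9.

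Several macrophage genes were much higher after mainstream smoke. Mmp12, the elastase of macrophages, lay between 10.35 and 10.78 in DIO-MS (median 10.72), between 6.34 and 6.90 in DIO-SS (median 6.53) and between 5.69 and 6.98 in DIO-SC. All 8 mainstream animals lay within 1 log2 unit of one another and none overlapped a sidestream animal. The difference was 4.08 ± 0.13 (adjusted p = 4.12e-28) and 4.12 without the pair. Ctsk, a cathepsin that cleaves collagen, was higher by 2.74, Gpnmb, a membrane protein of lipid-laden macrophages, by 2.00, and Cd68, a lysosomal protein of macrophages, by 1.48. Of 24 macrophage lipid and lysosome genes 18 rose and 1 fell, the fatty acid receptor Cd36 by 0.21, and 16 rose without the pair. Monocyte markers rose in 10 of 15 genes, with 0 lower. Without the pair 8 of 15 rose, or 10 in the fit on the 16 arrays. The median was 0.63 with the pair and 0.40 without it. Ms4a6d was higher by 1.77, Ms4a7 by 1.64 and the LPS co-receptor Cd14 by 1.37, and without the pair by 1.29, 1.27 and 1.12 in the same order.

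The markers of resident alveolar macrophages, which clear surfactant, did not move as one. Of 15 such genes 4 rose and 6 fell. Marco, a scavenger receptor that binds particles, was higher by 1.49, with 9.55 to 10.01 in DIO-MS against 7.95 to 8.59 in DIO-SS, and Itgax, an integrin chain shared with dendritic cells, by 1.13. Fabp1, a fatty acid binding protein, was lower, with 4.84 to 7.02 in DIO-MS (median 6.46), 8.44 to 9.03 in DIO-SS (median 8.67) and 8.02 to 10.03 in DIO-SC. Its difference was -2.47 ± 0.20 (adjusted p = 2.46e-13) and -2.16 without the pair, which held the lowest values at 5.84 and 4.84. Siglecf, a sialic acid binding lectin of alveolar macrophages and eosinophils, fell by 0.98, Cidec, a lipid droplet protein, by 1.28 and the keratin gene Krt79 by 1.10. Cidec is also a gene of fat cells, and adipocyte markers lay at -1.09 to -0.06 in DIO-MS and -0.70 to 0.61 in DIO-SS, with only Cidec called among 14. The part of fat tissue in the Cidec result was not tested.

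Acaa1b, a peroxisomal thiolase of fatty acid oxidation, fell furthest of all genes called with and without the pair. It lay between 4.79 and 5.78 in DIO-MS (median 5.13), between 8.01 and 8.54 in DIO-SS (median 8.35) and between 7.86 and 8.95 in DIO-SC. All mainstream animals lay below all sidestream animals, which in turn overlapped the air animals. The difference was -3.12 ± 0.16 (adjusted p = 2.47e-20) and -3.02 without the pair. Acot1, an acyl-CoA thioesterase, fell by 0.83. Among 28 genes of fatty acid oxidation and PPAR-alpha targets 4 fell with all arrays, namely Acaa1b, Fabp1, Acot1 and Ucp3, and 0 rose. Without the pair 3 fell. In the fit on the 16 arrays 9 fell, or 6 without the pair, and 0 rose in either case. The list's median was -0.14, against -0.04 over all genes. Its mean level lay at -0.41 to -0.17 in DIO-MS and at -0.02 to 0.28 in DIO-SS, without overlap. That mean includes the large falls of Acaa1b and Fabp1. The 30 subunits of oxidative phosphorylation had 0 members called.

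Neutrophil markers gave a divided picture. Of 18 genes 6 rose and 0 fell, both with and without the pair, but the median was 0.12 with it and -0.08 without it. The members that rose were Mmp8, Clec4d, Clec4e, Lcn2, Trem1 and Itgam, several of which monocytes, macrophages or epithelium also express. S100a8, a calprotectin subunit and one of the most abundant neutrophil transcripts, lay at 10.85 to 12.38 in DIO-MS and 10.76 to 11.81 in DIO-SS and was not called, with a difference of 0.15 ± 0.21. The groups overlapped almost wholly, and the 2 highest values were those of the pair, at 12.25 and 12.38.

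Interferon-induced genes were the group that turned most on the pair. Cxcl9, a chemokine induced by interferon gamma, was at 12.08 in DIO-MS-1 and 11.82 in DIO-MS-6, at 5.90 to 7.03 in the other 6 mainstream animals, and at 5.39 to 8.10 in DIO-SS (median 5.57). Mx1, a GTPase that is antiviral in other mouse strains, was at 9.51 in DIO-MS-1 and 9.19 in DIO-MS-6, at 4.44 to 4.98 in the other 6, and at 4.33 to 4.52 in DIO-SS. Ifit1, which binds foreign RNA, was at 13.11 in DIO-MS-1 and 13.02 in DIO-MS-6, at 8.94 to 9.35 in the other 6, and at 8.66 to 9.01 in DIO-SS. In all of these genes the pair lay far above every other animal, while the range of the other 6 overlapped that of the sidestream group. The overlap was small in Mx1 and Ifit1, where 7 of the 8 DIO-MS animals lay above all DIO-SS animals, against 2 in Cxcl9.

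The fitted differences followed the pair: with and without it they were 1.98 and 0.64 in Cxcl9, 1.41 and 0.24 in Mx1 and 1.33 and 0.34 in Ifit1, and none of these genes was called without it when the other arrays of the series stayed in the fit. The same held for Acod1, which makes the antimicrobial metabolite itaconate (1.72 and 0.46), and for the IgG receptor Fcgr1 (1.24 and 0.40). In Fcgr1 all 8 DIO-MS animals lay above all DIO-SS animals, and in Acod1 6 did. The fit on the 16 arrays compared turned the calls of these genes round. There Mx1 had an adjusted p of 0.159 with the pair and 0.0266 without it, Ifit1 0.119 and 0.00307, Acod1 0.112 and 0.0048, and Fcgr1 0.0895 and 0.000433, while Cxcl9 was called in neither case. Over 35 interferon-induced genes the mean level was 2.98 in DIO-MS-1 and 2.78 in DIO-MS-6, between -0.18 and -0.08 in the other 6, and between -0.30 and -0.01 in DIO-SS. The list's median difference was 0.70 with the pair, with 5 genes called, and -0.02 without it, with 1 called. That gene was Cxcl10, which draws T cells and NK cells through the receptor Cxcr3. Cxcl10 was at 13.14 and 13.13 in the pair, at 7.59 to 8.35 in the other 6 DIO-MS animals and at 5.69 to 7.04 in DIO-SS, so that all 8 mainstream animals lay above all sidestream animals. Its difference was 3.16 ± 0.60 with the pair (adjusted p = 0.000108) and 1.85 ± 0.40 without it (adjusted p = 0.00111).

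The promoters of Cxcl10 and Ifit1 are shown because both genes were highest in the pair. Without it Cxcl10 alone of the list was called in the fit that holds all groups. The fit on the 16 arrays without the pair called 3 of the list, Ifit1 among them. Capitals mark matches to the core of the interferon-stimulated response element (ISRE), GAAA, any 2 letters and GAAA again, searched on both strands in the 250 bases before the RefSeq start (GRCm38.p6, minus strand, chr5:92348890-92349139 for Cxcl10 and plus strand, chr19:34640639-34640888 for Ifit1).

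Cxcl10: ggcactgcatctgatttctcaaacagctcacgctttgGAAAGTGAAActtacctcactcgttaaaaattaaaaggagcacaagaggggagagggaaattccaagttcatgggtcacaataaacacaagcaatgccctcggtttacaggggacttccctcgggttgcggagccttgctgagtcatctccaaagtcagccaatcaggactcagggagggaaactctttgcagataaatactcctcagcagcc
Ifit1: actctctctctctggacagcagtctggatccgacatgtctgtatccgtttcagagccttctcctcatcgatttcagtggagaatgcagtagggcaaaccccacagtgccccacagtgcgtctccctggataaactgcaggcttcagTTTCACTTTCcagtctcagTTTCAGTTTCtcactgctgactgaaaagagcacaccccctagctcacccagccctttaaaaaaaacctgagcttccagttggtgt

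Cxcl10 holds 1 match to this core, 213 bases before the start, and Ifit1 holds 2, at 104 and 85 bases before it, both read on the other strand. The NF-kappaB consensus was not marked in these sequences, although Cxcl10 also holds matches to it. The core is present in 2.98% of 32851 promoters, and a match is a description of the letters and not a bound site.

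The pair was also higher in other immune lists. T cell markers lay at 1.09 in DIO-MS-1 and 0.67 in DIO-MS-6, at -0.21 to -0.01 in the other 6 and at -0.245 to 0.06 in DIO-SS. NK and cytotoxic markers lay at 1.07 in DIO-MS-1 and 0.66 in DIO-MS-6, at -0.35 to -0.21 in the other 6 and at -0.27 to 0.03 in DIO-SS. Without the pair the mainstream animals were thus not above the sidestream animals in either list. In the NK list the other 6 had a median of -0.27 against -0.12 in DIO-SS. There 5 of 17 markers were called lower, and 0 higher, in the fit on the 16 arrays without the pair. With all arrays 2 of 19 T cell markers and 0 of 17 NK markers were called, as were 2 of 16 B cell markers. Monocyte markers showed the same 2 animals at 1.41 and 1.32, but there the other 6, at 0.11 to 0.29, still lay above DIO-SS, at -0.40 to -0.11. The part of these cells in the interferon values was not tested.

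Genes of antigen presentation rose modestly. H2-Ab1, a chain of MHC class II, lay at 12.65 to 13.18 in DIO-MS and at 12.24 to 12.40 in DIO-SS, without overlap, with a difference of 0.51 ± 0.08 (adjusted p = 4.17e-06). Of 16 genes of MHC class II and dendritic cells, 12 rose and 0 fell. Without the pair 7 rose, or 12 in the fit on the 16 arrays. Cd83, a surface protein of mature dendritic cells, was higher by 1.38, or 1.12 without the pair. MHC class I and immunoproteasome genes, which interferon induces, rose in 8 of 14 genes with the pair. Without it 3 rose, or 6 in the fit on the 16 arrays. Psmb8, an immunoproteasome subunit, differed by 0.52 with the pair and by 0.18 without it. Without the pair Psmb8 was called in the fit on the 16 arrays (adjusted p = 0.0113) but not in the wider one.

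Aryl hydrocarbon receptor targets did not pass the test between the smokes with all arrays in the fit. Cyp1a1, the classic aryl hydrocarbon receptor target, lay at 7.10 to 9.04 in DIO-MS (median 8.52), at 7.51 to 8.78 in DIO-SS (median 7.93) and at 4.09 to 5.10 in DIO-SC. Both smoke groups lay far above air, by 3.62 in DIO-MS and by 3.31 in DIO-SS, comparisons that share the DIO-SC arrays. Between the smokes the difference was 0.31 ± 0.21 (adjusted p = 0.341), and the pair held the lowest mainstream values, at 7.71 and 7.10. Without the pair Cyp1a1 was called, at 0.63 ± 0.19 (adjusted p = 0.0355), with 8.48 to 9.04 in the other 6 animals. In Cyp1b1, which oxidizes the same compounds, the pair instead held the highest mainstream values, at 8.77 and 9.27. The other 6 lay at 8.11 to 8.26 and DIO-SS at 7.77 to 8.16. The Cyp1b1 difference was 0.39 with the pair and 0.18 without it, and neither was called. Its other probe sets gave 0.36 and -0.15 with all arrays, also not called. Of 9 aryl hydrocarbon receptor targets 0 were called with all arrays and 1, Cyp1a1, without the pair. In the fit on the 16 arrays 0 rose and 1 fell with the pair, and 1 rose and 1 fell without it.

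NRF2 targets, which are induced by oxidants, split in both directions, with 5 of 18 higher and 3 lower and a median of 0.01. Slc7a11, the cystine carrier that supplies glutathione synthesis, was higher by 0.88, the haem oxygenase gene Hmox1 by 0.43 and Gclc, a subunit of the enzyme that starts glutathione synthesis, by 0.35 (adjusted p = 0.0497). Without the pair Slc7a11 was higher by 0.56, while Hmox1, at 0.22, and Gclc, at 0.25, were called in the fit on the 16 arrays (adjusted p = 0.00427 and 0.0491) but not in the wider one. Ephx1 and Aox1 were lower, at -0.42 and -0.37, and in both genes all 8 DIO-MS animals lay below all DIO-SS animals. Without the pair Aox1, at -0.27, was called in both fits. Ephx1, at -0.19, was then called only in the fit on the 16 arrays (adjusted p = 0.00442). Of the 18 genes 2 rose and 2 fell without the pair, or 5 and 3 in the fit on the 16 arrays. Nqo1, a quinone reductase, was not called in either case, at -0.22 with the pair and -0.10 without it.

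Glutathione transferases, which conjugate electrophiles, fell in 9 of 20 genes and rose in 0, with a median of -0.235. Without the pair 5 fell, with a median of -0.135, or 10 in the fit on the 16 arrays. The list's mean level was -0.51 in DIO-MS-1 and -0.46 in DIO-MS-6, -0.14 to -0.07 in the other 6 and 0.004 to 0.19 in DIO-SS. Gstm1 lay at 11.29 to 12.40 in DIO-MS (median 12.24) and at 12.45 to 12.61 in DIO-SS (median 12.54), a difference of -0.50 ± 0.10 (adjusted p = 0.000361). The groups did not overlap and the sidestream values were tightly bunched. Without the pair the difference was -0.27, still called. Gsta2 differed by -0.79, Gsto1 by -0.65 and Gstk1 by -0.54, and without the pair by -0.47, -0.61 and -0.39 in the same order. Of 16 further xenobiotic enzymes of the lung 11 fell and 0 rose, with a median of -0.37, against 6 that fell without the pair, with a median of -0.20, or 10 in the fit on the 16 arrays. Ces1g, a carboxylesterase, fell by 1.08 and Aox3, an aldehyde oxidase, by 0.70. Cyp2f2, the abundant cytochrome P450 of club cells, fell by 0.27, and without the pair its difference of -0.15 was called in the fit on the 16 arrays (adjusted p = 0.0138) but not in the wider one (adjusted p = 0.0857).

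**Figure D4:**
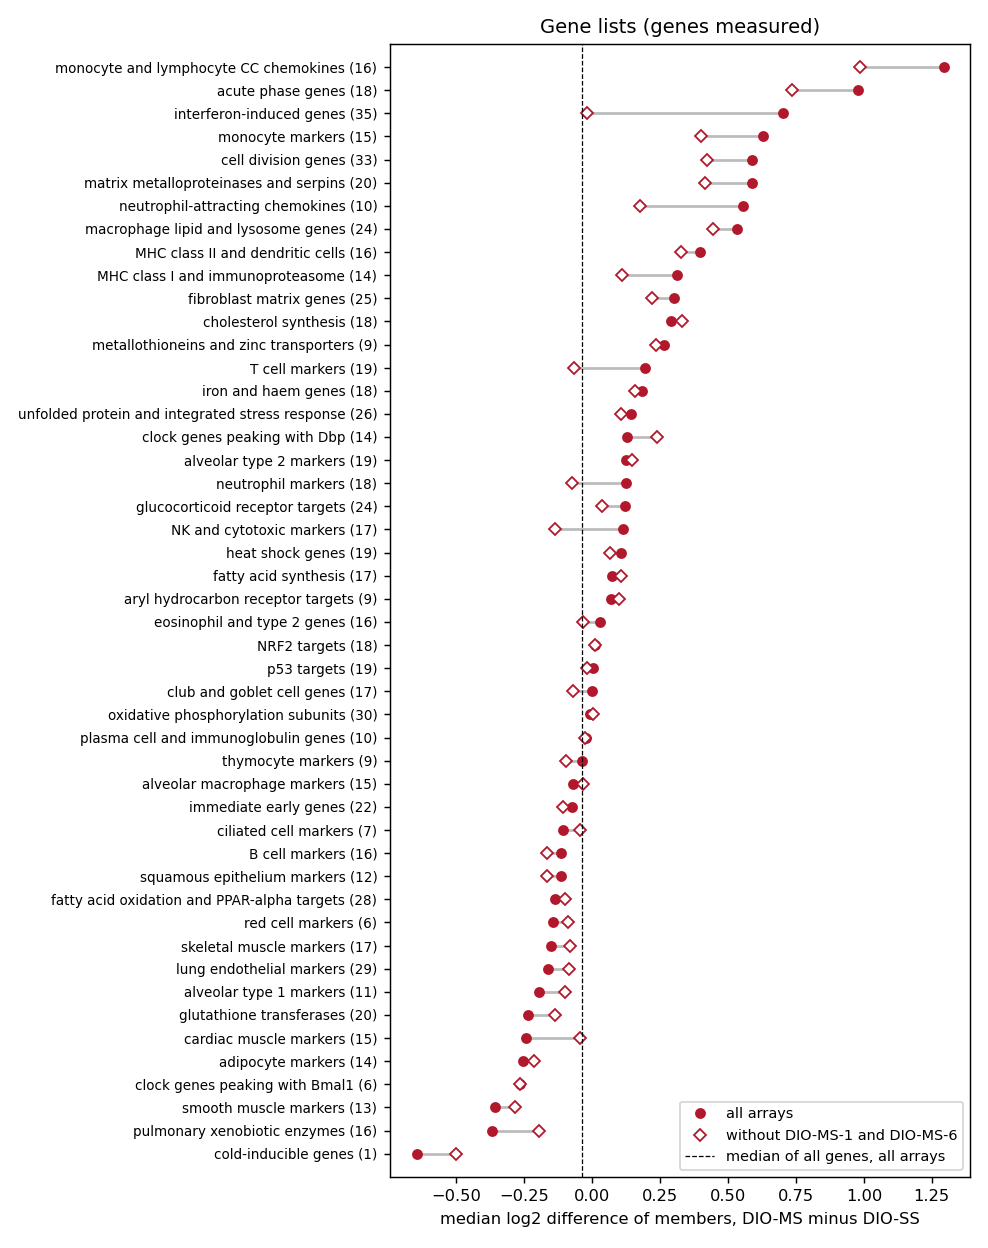
Median log2 difference DIO-MS minus DIO-SS (x axis) over the measured members of 48 gene lists (y axis, number measured in brackets), with all arrays (filled circles) and without DIO-MS-1 and DIO-MS-6 (open diamonds); the dashed line is the median of all genes, -0.04. The widest gap between the 2 symbols is that of the interferon-induced genes, 0.70 against -0.02.

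Among epithelial genes, several that encode secreted or surface proteins rose and others fell. Sftpd, a surfactant collectin that binds microbes, lay at 14.43 to 14.57 in DIO-MS, against 13.92 to 14.11 in DIO-SS and 13.24 to 14.04 in DIO-SC. The groups were narrow and did not overlap, with a difference of 0.48 ± 0.06 (adjusted p = 6.49e-08) and 0.46 without the pair. Fabp5, a fatty acid binding protein shared by type 2 cells and macrophages, was higher by 1.06 and the mucin Muc1 by 0.45. Of 19 alveolar type 2 markers 6 rose and 0 fell, both with and without the pair. Alveolar type 1 markers fell in 4 of 11 genes and rose in 1. Their lower members included Igfbp6, Cav2 and Cav1, at -0.83, -0.34 and -0.29, of which only Igfbp6 was called without the pair, whereas in the fit on the 16 arrays without it 4 fell, Cav2 (adjusted p = 0.00183) and Cav1 (adjusted p = 0.00727) among them. Pigr, which carries IgA across epithelium, was higher by 1.71, and Slc26a4, the anion exchanger pendrin, by 2.96. Of 17 club and goblet cell genes 1, Pigr, rose and 3 fell. The lower members were Cyp2f2, Aldh1a1, at -0.34, and Scgb3a2, at 13.98 to 14.43 in DIO-MS against 14.48 to 14.63 in DIO-SS. Without the pair 1 rose and 1 fell, or 1 and 3 in the fit on the 16 arrays. Slc26a4 was also higher in DIO-SS than in air, by 1.29 (adjusted p = 1.72e-05).

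Some cell division genes and matrix genes rose after mainstream smoke, in numbers that depended on the fit. Mki67, a marker of cycling cells, lay at 7.67 to 8.67 in DIO-MS (median 8.13) and at 6.61 to 7.34 in DIO-SS (median 6.80), with a difference of 1.25 ± 0.33 (adjusted p = 0.00593). DIO-SC held 1 animal at 10.54 over a median of 6.45, which widened the pooled spread. Of 33 cell division genes 15 rose with all 48 arrays and 3 without the pair, but 28 rose in the fit on the 16 arrays compared and 24 in that fit without the pair. The median difference was 0.59 with the pair and 0.42 without it. Among 25 matrix genes of fibroblasts 12 rose and 1, the elastin gene Eln, fell by 0.46. Tnc, a matrix glycoprotein of injured tissue, was higher by 1.02, Col5a2 by 0.64 and Col3a1 by 0.64. Without the pair 7 rose and 0 fell, or 13 rose and 0 fell in the fit on the 16 arrays. Tnc, at 0.82 without the pair, was called in that fit (adjusted p = 8.37e-06) and not in the wider one (adjusted p = 0.0658).

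Smooth muscle genes were lower after mainstream smoke. Actg2, an actin of smooth muscle, lay at 7.52 to 8.95 in DIO-MS (median 8.57), at 9.23 to 9.80 in DIO-SS (median 9.45) and at 8.75 to 10.69 in DIO-SC. All mainstream animals lay below all sidestream animals, with DIO-MS-1 the lowest, and the difference was -0.99 ± 0.18 (adjusted p = 5.22e-05) with the pair and -0.81 without it. Cnn1, which encodes calponin, fell by 0.87 and Tagln, an actin-binding protein, by 0.65. Acta2, the main smooth muscle actin, fell by 0.60 on a probe set that can match several transcripts, while its other probe set gave 0.07 (adjusted p = 0.697 when such probe sets were left out), so its result is uncertain. Of 13 smooth muscle markers 8 fell and 0 rose, with a median of -0.36. Without the pair 5 fell, or 6 in the fit on the 16 arrays. In regular weight mice 0 of the 13 were called, with a median of -0.07, but for no member did the difference between the diets pass the test (for Acta2 it was -0.57, adjusted p = 0.186, and for Actg2 -0.79, adjusted p = 0.55). Cardiac muscle markers were also lowest in DIO-MS-1, as given above, and their part was not tested.

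The endothelial selectins rose, while 9 of 29 endothelial markers fell. Selp and Sele, the selectins on which leukocytes roll, were higher by 1.43 and 0.85, and both were called without the pair, at 0.95 and 0.46. The DIO-SS level of Sele (median 3.87) lay below the fifth percentile of all genes, 4.09. Sele lay at 3.86 to 4.64 in the DIO-MS animals other than the pair. Edn1, which encodes the vasoconstrictor endothelin 1, differed by -0.73 between the smokes, and against air it was higher both in DIO-MS, by 0.62 (adjusted p = 0.00314), and in DIO-SS, by 1.34 (adjusted p = 9.16e-08). The selectins were the 2 markers of that list that rose. Without the pair 2 rose and 2 fell, or 3 rose and 7 fell in the fit on the 16 arrays.

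Genes of cholesterol synthesis rose together, whether or not the pair was included. Cyp51, a demethylase of the sterol pathway, lay at 8.16 to 8.58 in DIO-MS, against 7.52 to 8.00 in DIO-SS and 7.52 to 8.46 in DIO-SC. The smoke groups did not overlap, and the difference was 0.68 ± 0.09 (adjusted p = 1.96e-07). Mvd was higher by 0.56, Dhcr7 by 0.50 and Sqle by 0.47, all enzymes of the same pathway. Of 18 genes 12 rose and 0 fell, with a median of 0.29, and without the pair 10 rose, with a median of 0.33.

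In several clock genes the sidestream animals lay further from air than the mainstream animals did. Dbp, a transcription factor with a strong daily rhythm, lay at 10.32 to 11.40 in DIO-MS (median 11.15), at 9.77 to 10.59 in DIO-SS (median 10.02) and at 11.07 to 11.65 in DIO-SC (median 11.40). The smoke groups overlapped through DIO-MS-1, DIO-MS-4 and DIO-MS-6, at 10.44, 10.35 and 10.32. The difference was 0.85 ± 0.16 (adjusted p = 9.92e-05), and 1.03 without the pair. Against air it was -0.46 in DIO-MS and -1.32 in DIO-SS, comparisons that share the air arrays. Nr1d1, a repressor in the clock that is also called Rev-erb alpha, differed by 0.48 between the smokes, by -1.13 between DIO-MS and air and by -1.61 between DIO-SS and air.

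Arntl, whose protein Bmal1 drives the clock and peaks opposite to Nr1d1, ran the other way. It lay at 6.49 to 7.08 in DIO-MS (median 6.64), at 7.19 to 7.87 in DIO-SS (median 7.46) and at 6.39 to 8.29 in DIO-SC (median 6.87). The smoke groups did not overlap, with a difference of -0.81 ± 0.15 (adjusted p = 0.000121), and DIO-SS differed from air by 0.60 (adjusted p = 0.0105). Of 14 genes that peak with Dbp 4 rose and 0 fell, and of 6 that peak with Bmal1 0 rose and 3 fell. Without the pair these counts were 6 and 2. The labels give no time of day for the collections, so a difference in hour between the groups cannot be told apart from the smoke.

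**Figure D5:**
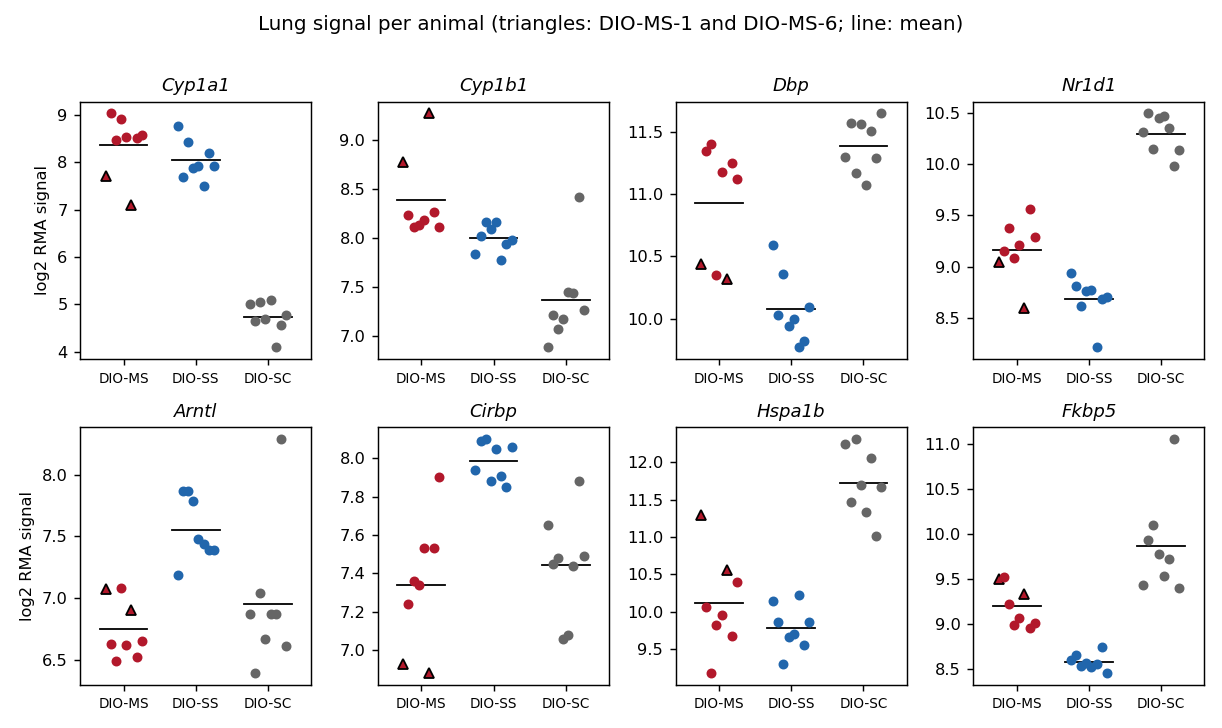
Log2 signal (y axis) of 8 smoke, clock and stress genes in each animal of DIO-MS, DIO-SS and DIO-SC (x axis), with a line at each group's mean and triangles for DIO-MS-1 and DIO-MS-6. Cyp1a1 is far above air in both smoke groups, and in Dbp and Nr1d1 the sidestream animals lie furthest below air.

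Cirbp, which binds RNA and is induced when cells are cooled a little, lay at 6.88 to 7.9 in DIO-MS (median 7.35), at 7.85 to 8.10 in DIO-SS (median 7.99) and at 7.06 to 7.88 in DIO-SC (median 7.47). One mainstream animal reached the sidestream range, and the difference was -0.65 ± 0.12 (adjusted p = 0.000108), or -0.50 without the pair. Hspa1b, the inducible Hsp70, lay at 9.18 to 11.30 in DIO-MS and at 9.30 to 10.22 in DIO-SS, with a difference of 0.33 ± 0.24 that was not called. Both lay under air, by 1.61 in DIO-MS and by 1.94 in DIO-SS. Fkbp5, a glucocorticoid receptor target, lay at 8.96 to 9.52 in DIO-MS, at 8.46 to 8.75 in DIO-SS and at 9.40 to 11.05 in DIO-SC, and the smoke groups did not overlap. Its difference was 0.62 ± 0.15 (adjusted p = 0.00209) and 0.54 without the pair. Of 24 glucocorticoid receptor targets 7 rose and 4 fell. Without the pair 5 rose and 1 fell, or 7 and 4 in the fit on the 16 arrays. Chaperones of the endoplasmic reticulum rose, with Hspa5 higher by 0.45 and Sdf2l1 by 0.73. Of 26 genes of the unfolded protein and integrated stress response 11 rose and 0 fell. Without the pair 8 of the 26 rose, or 10 in the fit on the 16 arrays. Of 19 heat shock genes 5 rose and 1 fell with all arrays. Without the pair 1 rose, or 4 rose and 1 fell in the fit on the 16 arrays.

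Some metal-handling and protease genes rose after mainstream smoke. Mt2, a metallothionein that binds zinc, was higher by 0.96 (0.77 without the pair) and Slc39a14, a zinc and iron importer, by 0.92 (0.59 without it), and 4 of 9 genes of this list rose with 0 lower. Hpx, which encodes the haem carrier haemopexin, was higher by 1.17 and Slc11a1, a metal exporter of phagosomes, by 0.83. Of 18 iron and haem genes 9 rose and 1 fell, the haem transporter gene Slc48a1 by 0.26. Without the pair 7 rose, or 9 in the fit on the 16 arrays. Of 20 metalloproteinases and serpins 11 rose and 0 fell. Without the pair 8 rose, or 11 rose and 1 fell in the fit on the 16 arrays. Mmp13, a collagenase, differed by 1.14 with the pair and by 0.54 without it, when it was called in the fit on the 16 arrays (adjusted p = 0.0103) but not in the wider one (adjusted p = 0.0874). Its DIO-SS level (median 3.69) lay below the fifth percentile of all genes, 4.09.

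DIO-MS differed from DIO-SC in 2658 genes (21.4%), 1448 higher (11.7%) and 1210 lower (9.76%), and DIO-SS differed from DIO-SC in 849 (6.85%), 528 higher (4.26%) and 321 lower (2.59%). Both counts use the same air arrays, 2 of which stood apart. The DIO-MS count also includes the pair, without which the calls between the smokes fell from 2086 to 857. A count against air without the pair is not given, so how far the 2658 depend on it is not shown. Of the genes that led the comparison of the smokes, Mmp12 differed from air by 4.21 in DIO-MS and by 0.12 in DIO-SS, Cxcl1 by 4.56 in DIO-MS and by 0.29 in DIO-SS, and Acaa1b by -3.00 in DIO-MS and by 0.12 in DIO-SS. None of these passed the test in DIO-SS, whereas Saa3 did, by 6.66 in DIO-MS and by 0.83 in DIO-SS (adjusted p = 0.0363).

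In regular weight mice the same comparison, RW-MS against RW-SS, called 1211 genes (9.77%), 750 higher (6.05%) and 461 lower (3.72%). With the pair, which enters here only through the pooled spread, left out of the fit, 884 were higher (7.13%) and 630 lower (5.08%). The leading genes differed in the same direction there, by 5.38 in Saa3, 3.67 in Mmp12, 3.43 in Cxcl1 and -2.70 in Acaa1b. The difference between the diets was tested for each gene, and 1 gene passed (0.00807%), with 624 (5.04%) at an unadjusted p below 0.05. That gene was Saa1, an acute phase serum amyloid, at 7.15 to 8.55 in DIO-MS (median 7.78) and 5.06 to 5.56 in DIO-SS (median 5.24). The smoke groups were far apart, by 2.56 ± 0.15 in obese and by 1.33 in regular weight mice, a difference of 1.23 ± 0.21 (adjusted p = 0.0087). Without the pair no gene passed by limma, with 369 (2.98%) at an unadjusted p below 0.05, although Saa1 still differed by 2.36 in obese mice against 1.33 in regular weight mice, and none passed in the fit on the 32 smoke arrays, with 828 (6.68%). The probe set used for Saa1 can match several transcripts, and Saa2 is nearly identical, so which of them was measured is uncertain. The other Saa1 probe set gave 3.98 between DIO-MS and DIO-SS (adjusted p = 2.94e-23), a value for obese mice alone that does not bear on the difference between diets.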

How the data were processed

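Lung RNA of 48 mice was measured on Affymetrix arrays, 1 per animal, and the authors deposited log2 values from RMA, per the submitters' processing notes. Neither the RMA version nor joint normalization of the arrays is stated in the sources used here, and no detection calls were used. Of 22690 probe sets, 64 were control probe sets, 20393 had 1 gene symbol, 691 had several and 1606 were unlisted. The 20380 used covered 12393 genes, 4956 of them with several probe sets, and the probe set with the highest mean over 48 arrays stood for the gene. Groups came from the sample titles. A mean per group was fitted over 48 arrays with limma 3.58.1 in R 4.3.3 (lmFit and eBayes), two-sided, with Benjamini-Hochberg adjustment over 12393 genes, and genes with an adjusted p below 0.05 were called. Differences are DIO-MS minus DIO-SS, the difference between diets is DIO minus RW of that contrast, and all p-values measure spread between the animals. On simulated data 92% of 1.5-fold and 98% of 2-fold changes were recovered for DIO-MS minus DIO-SS, and 16 unchanged genes were called. The simulation drew independent noise with 1 spread per gene for all groups. It held no arrays that stood apart, so these rates do not cover the dependence on such arrays.

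The gene lists, like the comparison, were chosen with earlier results of these data known, and their counts are descriptions. Genes are named by rule: the 12 highest and 12 lowest called with and without the pair, the 8 largest called only with and only without it, up to 4 called members per list by size, the gene called for the diet difference, and a set of fixed genes. Others, such as Ppbp, Cd36, Eln, Ucp3 and the 6 neutrophil markers, complete small counts or describe markers and were chosen after their values were seen. Alternatives left out arrays, changed the probe set rule, filter, centring, quantile normalization or weights, or added replicate number as a block. Replicate numbers did not pair the animals: deviations of same-numbered animals correlated at -0.15 to 0.223. Promoter sequences are RefSeq's (GRCm38.p6), with entries for 125 of 156 named genes.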

Additional observations from a re-analysis of the deposited data

Results flagged for a closer look

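The difference between smokes was larger in obese than in regular weight mice by 1.23 (log2) in Saa1, by the interaction test given above.

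Single animals stood apart in 17 of 312 tests of a named gene within a group of 8, where the gap to the nearest animal, as a share of the group's range, passed Dixon's critical value; chance gives about 1 in 20. In DIO-MS the animal was DIO-MS-1 for Acta2 (share 0.543, level 11.69 against 12.22 in the nearest), Actg2 (0.581, 7.52 against 8.35) and Ccl17 (0.593, 9.53 against 10.34), where it was lowest, and for Cd68 (0.601, 11.63 against 11.27), where it was highest. DIO-MS-6 was highest for Mt2 (0.707, 11.42 against 10.49) and Steap4 (0.665, 11.83 against 11.27), and DIO-MS-7 for Muc1 (0.705, 12.08 against 11.87).

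In DIO-SS the animal DIO-SS-7 was highest for Saa3 (0.619, 10.24 against 8.68), Lamb3 (0.552, 10.20 against 9.98) and Pdpn (0.689, 11.55 against 11.32). DIO-SS-1 was highest for the chaperones Hspa5 (0.543, 12.45 against 12.29), Hspe1 (0.662, 11.36 against 11.13) and Hsph1 (0.688, 10.69 against 10.22). DIO-SS-5 was highest for Cxcl9 (0.684, 8.10 against 6.25), DIO-SS-6 highest for Dusp1 (0.665, 12.56 against 12.04) and lowest for Nr1d1 (0.543, 8.21 against 8.61), and DIO-SS-4 lowest for Cd68 (0.658, 9.37 against 9.70). Genes in which both DIO-MS-1 and DIO-MS-6 lay apart, such as Cxcl9 and Mx1, cannot be found this way, since each lies near the other.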

How the results depend on the processing

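The 2086 calls between DIO-MS and DIO-SS became 857 without DIO-MS-1 and DIO-MS-6, and 1388 to 2259 when 1 array at a time was left out. The balance of 1094 higher and 992 lower also turned with processing. It was 1000 higher and 1214 lower with centred arrays, 1062 and 1165 after quantile normalization, and 1180 and 1233 with array weights. Of the 156 named genes 105 stayed on their side of the threshold without the pair, 43 lost the call and 8 gained it. Acta2 changed sign, to 0.0744 (adjusted p = 0.697), when probe sets that can match several transcripts were left out. Between RW-MS and RW-SS the 1211 calls became 2116 without the 5 arrays that stood apart and 2169 with array weights. For the difference between diets, which called 1 gene, the count was 0 in the fit on the 32 smoke arrays (828 genes at an unadjusted p below 0.05 by limma), 0 without the pair (369), 0 without the genes of lowest mean level, 3 without the 5 arrays, 2 with the mean of all probe sets of a gene, 11 with array weights, and 5 without DIO-SC-3, DIO-SC-7 and RW-SS-6, a setting chosen after seeing the data, as was the fit on 16 arrays without the pair. Replicate numbers did not pair the animals, and with the replicate block 2037 genes were called. The cause of these changes was not tested. Without detection calls, low levels cannot be told from background, which limits folds against genes such as Cxcl2, Il6, Sele and Mmp13.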

Other observations

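Several genes outside the lists fell after mainstream smoke, with and without DIO-MS-1 and DIO-MS-6. Ear3, of the eosinophil-associated ribonuclease family, lay at 7.08 to 7.93 in DIO-MS (median 7.57) and at 8.92 to 9.61 in DIO-SS (median 9.30), a difference of -1.64. Bex2, of a family of small brain-expressed X-linked genes, lay at 7.67 to 9.55 in DIO-MS and 10.07 to 10.44 in DIO-SS. No animal overlapped in either gene. Bex2 differed by -1.31, Bex1 by -1.02 and Bex4 by -0.88, while Bex3 differed by 0.05 and was not called; Bex3 and Bex4 were looked up after the first 2 were seen.

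Igfbp3, which binds insulin-like growth factors, lay at 7.82 to 9.03 in DIO-MS and at 9.38 to 9.78 in DIO-SS, a difference of -1.09. Aspn, a small matrix proteoglycan, differed by -1.05 between the smokes and was higher in DIO-SS than in air by 1.25. Gal, which encodes the neuropeptide galanin, differed by -0.99.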
